A study of Mus musculus with 80 samples.

Results

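The genes described here encode the subunits of oxidative phosphorylation that are carried in the nucleus, with the assembly factors that share their name stems. They were taken by name from the table of all genes: names starting with Nduf, Uqcr, Atp5 or Cox followed by a digit from 4 to 8, and the names Sdha, Sdhb, Sdhc and Sdhd. Of 92 matching names, 4 with a pseudogene suffix were left out, and 88 of the 25160 listed genes remained. No measured value entered this choice. By textbook role, 44 belonged to complex I, 4 to complex II, 8 to complex III, 16 to complex IV and 16 to complex V. A total of 78 were structural subunits, and the other 10 were assembly factors or associated proteins. Ndufa4 and Ndufa4l2 were counted with complex IV, where the NDUFA4 protein is now placed, and Atp5sl with complex I assembly.

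The cells came from the dorsomedial striatum of adult mice heterozygous for Drd2-EGFP as well as for Drd1a-TdTomato, so every cell compared here carried both transgenes. TdTomato is driven by regulatory sequence of the D1 dopamine receptor gene and marks medium spiny neurons (MSN) of the direct pathway, and EGFP is driven by that of the D2 receptor gene and marks MSN of the indirect pathway as well as cholinergic interneurons. Both reporters are BAC transgenes. RNA of each sorted cell was amplified as cDNA and sequenced on its own. The table held 80 single cells, 40 labelled Drd1 and 40 labelled Drd2. Of the latter, 2 cells with more than 100 TPM of Chat, the acetylcholine-synthesizing enzyme, were taken as cholinergic interneurons and set apart, which left 40 D1 MSN and 38 D2 MSN.

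Nuclear genes supply most subunits of the respiratory chain, and the mitochondrial genome supplies a few central ones. Complex I passes electrons from NADH and complex II from succinate to ubiquinone, complex III hands them to cytochrome c, and complex IV reduces oxygen. The proton gradient built on the way drives complex V, the ATP synthase. Neurons draw most of their ATP from this pathway, and the genes are usually described as housekeeping genes with a few isoforms that differ between tissues.

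Values were TPM (transcripts scaled for gene length and to a common total in each cell). The paper reports a bias of reads toward the 3′ end in these data, which it relates to long transcripts in particular. It also describes UTRs that a gene annotation can lack. Comparisons of level between genes carry these limits, and their part in the order of genes was not tested. TPM keep no read count, the depth of each cell is unknown and no limit of detection can be given. A gene was called found in a cell above 1 TPM. The listed genes of a cell summed to 506588 to 958040 TPM, and 648 to 8657 genes were found per MSN. Plates FACS051_5 (18 D1 and 16 D2 MSN) and FACS086_4 (21 and 19) held nearly all cells, and 1 D1 and 3 D2 MSN came from FACS086_9. Animals are not named in the labels, so cells are not replicates and each group counts as 1 sample. No test could be made, an SD is the spread among cells, and the named differences in log2 fold are given for both large plates as well. The labels held up in most cells: Drd1 was found in 38 of 40 D1 and 3 of 38 D2 MSN, Adora2a in 1 and 31, and the MSN gene Ppp1r1b in every cell of both groups. Other subtype markers were less clean by detection. Penk was found in 40 and 38, with medians of 11.4 and 10688 TPM, and Tac1 in 39 and 22, with 899 and 1.37 TPM. Pdyn was found in 22 and 2, Isl1 in 24 and 1, and Slc35d3 in 26 and 0. Drd2 was found in 2 and 26, Gpr6 in 0 and 30, and Sp9 in 5 and 16. Some cells stood apart. The cell labelled Drd1 in well B02 of FACS086_4 had 648 genes found and 1.42 TPM of Ppp1r1b. The cell labelled Drd1 in well D04 of FACS051_5 had 10427 TPM of the astrocyte gene Aldoc and 989 TPM of Gja1, against 2.03 TPM of Drd1. The 5 astrocyte genes measured summed to 0 to 13896 TPM in D1 MSN, the highest being this cell, and to 0 to 225 TPM in D2 MSN, with medians of 1.36 and 0.58 TPM. Wells D12 of FACS086_4 and A12 of FACS086_9, both labelled Drd2, had fewer than 2000 genes found. The A12 cell carried markers of both subtypes, with 1218 TPM of Tac1, 196 TPM of Penk and 62.9 TPM of Adora2a. It was kept with the D2 MSN.

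The start regions of these genes are shown first, as sequence that the choice by name did not use. RefSeq start windows (GRCm38.p6, from 250 bases before to 50 after the start) were at hand for 74 of the 88 genes and were searched on both strands for short words. The word GCGCANGCG, of the kind bound by NRF1, lay in the windows of 22 of 74 members (29.7%), against 7.03% of 27025 genes and 18.8% of 5252 genes with a mean of 10 TPM or more in MSN. CCGGAAG, of the kind bound by ETS factors such as GABP, lay in 17 (23%), against 9.93% and 23.1%. AAGATGGC, of the YY1 kind, lay in 11 (14.9%), against 3.19% and 6.59%, and TCAAGGTCA, of the ERR kind, in 2 (2.70%), against 0.466% and 0.362%. At least 1 of these 4 words was present for 42 members (56.8%), against 18.2% of all genes and 41.5% of those at 10 TPM or more. The word TATAAA was in 6 members (8.11%), against 15.7% of all genes and 8.53% of those at 10 TPM or more, and CCAAT in 33 (44.6%), against 41.1% and 43.8%. The median GC content of the members' windows was 58.5%, below the 61.0% of the genes at 10 TPM or more. Beside the genes at 10 TPM or more, the share of members was close for the ETS-type word, TATAAA and CCAAT and higher for the NRF1-type and YY1-type words, and these shares were not tested. A match is a description of letters and not a site.

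Within the 200 bases before the start, 66 members had a stretch outside every exon of GENCODE M21, and 12 of these held 1 of the 4 words there. Shown are 5 of them: Cox6a1 and Atp5h, among the most abundant members, Atp5g3, the most abundant gene for subunit c, and Sdhd and Uqcrh, among the members that differed most between D1 and D2 MSN. All 5 lie on the minus strand and are printed 5′ to 3′ toward the start, with matches in capitals. Cox6a1 (chr5:115348982-115349129) held NRF1-type matches that began 162 and 117 bases before the start, the first read on both strands. Atp5h (chr11:115419963-115420119) held an NRF1-type match 141 bases before it. Atp5g3 (chr2:73911327-73911526) held an ERR-type match at 52 bases. Sdhd (chr9:50603850-50603909) held an ETS-type match at 46 bases, and Uqcrh (chr4:116075072-116075268) held an ETS-type match at 10 bases.
Cox6a1: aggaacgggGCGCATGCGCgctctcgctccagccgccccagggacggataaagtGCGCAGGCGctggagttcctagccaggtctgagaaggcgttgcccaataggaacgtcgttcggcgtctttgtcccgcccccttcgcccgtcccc
Atp5h: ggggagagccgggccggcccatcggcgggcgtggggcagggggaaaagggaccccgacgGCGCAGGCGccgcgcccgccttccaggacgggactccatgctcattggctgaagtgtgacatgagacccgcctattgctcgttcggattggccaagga
Atp5g3: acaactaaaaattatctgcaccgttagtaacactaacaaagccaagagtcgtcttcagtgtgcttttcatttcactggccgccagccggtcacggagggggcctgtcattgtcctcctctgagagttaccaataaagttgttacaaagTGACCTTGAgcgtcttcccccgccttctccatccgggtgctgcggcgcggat
Sdhd: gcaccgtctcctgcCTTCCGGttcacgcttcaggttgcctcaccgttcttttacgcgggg
Uqcrh: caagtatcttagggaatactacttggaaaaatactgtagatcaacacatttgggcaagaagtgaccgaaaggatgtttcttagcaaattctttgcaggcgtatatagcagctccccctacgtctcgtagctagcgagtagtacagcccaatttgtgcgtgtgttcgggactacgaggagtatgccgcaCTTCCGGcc

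The members were among the most abundant genes of these neurons. Of the 200 genes with the highest mean TPM over the 78 MSN, 34 were members, and 71 members lay among the first 1000. Their summed level averaged 30385 ± 9249 TPM (SD, 78 cells), or 3.04% of the TPM scale. Complex I held 36.8% of this sum, complex IV 25.2%, complex V 25.0%, complex III 11.1% and complex II 1.93%, and the 10 assembly and associated genes together held 1.43%. The 84 members that averaged at least 10 TPM had a median mean level of 296 TPM, against 29.5 TPM for the 7642 genes above the same limit. The other 4 members, all tissue isoforms, were near 0 and are described below.

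**Figure D1:**
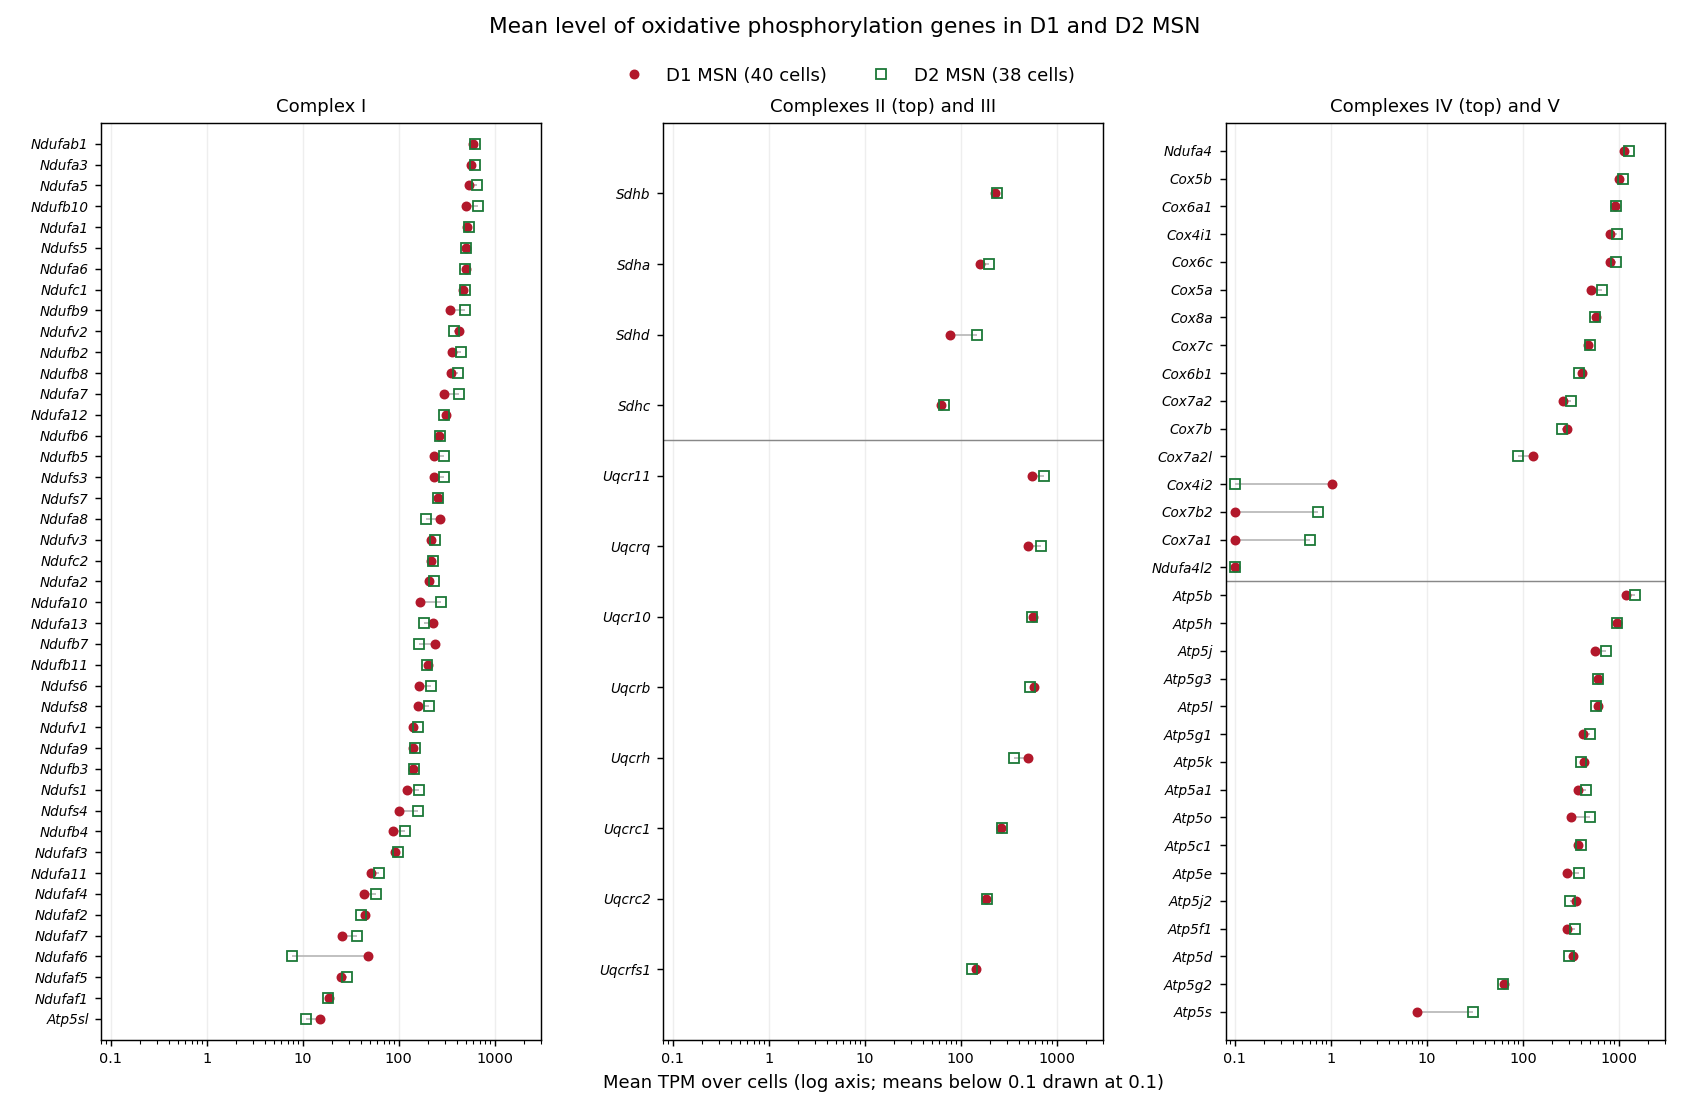
Mean TPM of 87 of the 88 genes over 40 D1 MSN (filled circles) and 38 D2 MSN (open squares) on a log axis, by complex. Most pairs of symbols overlap, Ndufaf6 and Atp5s are pulled apart, and 4 isoforms of complex IV lie near or at the left edge.

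In complex I, the largest complex, the 36 structural subunits averaged from 56.9 TPM (Ndufa11, a membrane-arm subunit) to 611 TPM (Ndufab1, the mitochondrial acyl carrier protein). The 7 core subunits carry the flavin and the iron-sulfur clusters or help to bind ubiquinone. Among them, Ndufv2 averaged 405 TPM and Ndufs7 256 TPM. Ndufs8 averaged 184 TPM, Ndufv1, which binds NADH, 149.5 TPM, and Ndufs1, the largest subunit, 142 TPM. In D1 MSN Ndufs1 ran from 0 through a median of 110 to 446 TPM, and in D2 MSN from 0 through 122 to 748 TPM. The groups overlapped over nearly the whole range. The 29 accessory subunits had a median level of 265 TPM.

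Complex II, which is also an enzyme of the citric acid cycle and has no mitochondrially encoded subunit, was the least abundant. Sdhb, the iron-sulfur subunit, averaged 233 ± 228 TPM over MSN and was found in 71 of 78 cells. Sdha, the flavoprotein, averaged 177 TPM and was found in 70. The membrane anchors were lower and patchier: Sdhc averaged 64.8 TPM and was found in 49 cells, and Sdhd averaged 111 TPM and was found in 43. Sdhb exceeded Sdhc in 58 of 78 cells (74.4%, exact 95% interval 63.2 to 83.6%, counting error only) and Sdhd in 56 (71.8%, 60.5 to 81.4%). The sum of complex II averaged 586 ± 406 TPM (SD, 78 cells), a wider spread for its level than the 11193 ± 3659 TPM of complex I. It ran from 1.03 to 1754 TPM in D1 MSN and from 0.352 to 1739 TPM in D2 MSN. Complex II is a sum of 4 genes and complex I of 44, and the part of gene number in the spread was not tested.

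In complex III the small subunits led and the iron-sulfur protein was lowest. Uqcr11, the smallest subunit, averaged 644 TPM, and Uqcrfs1, the Rieske protein, averaged 137 TPM. Uqcr11 exceeded Uqcrfs1 in 75 of 78 cells (96.2%, 89.2 to 99.2%). The core proteins Uqcrc1 and Uqcrc2 averaged 268 and 185 TPM, and Uqcrc1 was the higher of the pair in 49 of 78 cells (62.8%, 51.1 to 73.5%), so their order was not fixed from cell to cell.

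Complex IV had the steadiest transcripts, with a median coefficient of variation of 0.61 over its 12 members that averaged at least 10 TPM. Cox7a2l, with 1.47, was an exception. Complex IV also had the highest median level of the complexes, 580 TPM, and the part of level in this was not tested. Leaving out the 4 isoforms near 0, its 11 structural subunits averaged from 273 TPM (Cox7b) to 1204 TPM (Ndufa4), and each was found in at least 90% of MSN. Cox5b, Cox6c, Ndufa4 and Cox7c had 4 of the 5 smallest coefficients of variation among the members, with 0.55, 0.51, 0.55 and 0.56, and Atp5l of complex V, with 0.52, was the other. Cox6c ran from 0.881 through 734 to 1850 TPM in D1 MSN and from 193 through 775 to 2183 TPM in D2 MSN. Cox5b ran from 3.86 through 1022 to 2148 TPM in D1 MSN and from 43.7 through 1020 to 3076 TPM in D2 MSN. In both genes the lowest D1 value was that of the cell in well B02 of FACS086_4, and the medians of the groups lay close together. Cox4i1, the first nuclear subunit to join the complex, averaged 878 TPM, above Cox5a with 583 TPM, and exceeded it in 53 of 78 cells (67.9%, 56.4 to 78.1%).

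In complex V the catalytic beta subunit stood out. Atp5b averaged 1316 ± 824 TPM, the highest mean of all members and the 44th highest of all genes, and it was found in every MSN. The alpha subunit Atp5a1, present in the enzyme in equal number, averaged 415 TPM, and the gamma subunit Atp5c1, the rotor stalk, 389 TPM. Atp5b exceeded Atp5a1 in 71 of 78 cells (91.0%, 82.4 to 96.3%), by 3.17 times in the means, and it exceeded Atp5c1 in 71 cells as well. The ratio of Atp5b to Atp5a1 was 3.13 in D1 MSN and 3.20 in D2 MSN. Their order was thus alike in both subtypes.

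Some subunits are encoded by several genes whose use differs between tissues. The c-ring subunit, with the same mature protein from 3 genes, came mostly from Atp5g3 (612 TPM, 53.9% of the sum of the 3) and Atp5g1 (461 TPM, 40.6%), and little from Atp5g2 (63.0 TPM, 5.55%). Atp5g3 exceeded Atp5g2 in 73 of 78 cells (93.6%, 85.7 to 97.9%), whereas it exceeded Atp5g1 in 30 of 40 D1 MSN and 19 of 38 D2 MSN, so the order of the first and second was not settled within cells. In complex IV, Cox4i1, Cox7a2 and Cox7b each held 99.9% of the sum of their isoform pair. Cox4i2, an isoform of lung and hypoxic cells, was found in 1 MSN with 41.0 TPM, the D04 cell with astrocyte transcripts. Cox7a1, the heart and muscle isoform, was found in 1 D2 MSN with 22.8 TPM, where Cox7a2 averaged 288 TPM over MSN. Cox7b2 was found in 3 D2 MSN, at 3.63, 11.8 and 12.6 TPM, and Ndufa4l2 in 1 D1 MSN at 3.90 TPM. All 4 were listed at 0 in both cholinergic interneurons. Cox6a1 (928 TPM), Cox6b1 (401 TPM) and Cox8a (577 TPM) were abundant. Their muscle or testis isoforms Cox6a2, Cox6b2, Cox8b and Cox8c were not among the listed genes, so no value can be given.

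Structural subunits were mostly found in more cells than assembly genes, with some overlap. Of the 84 members that averaged at least 10 TPM, 46 were found in at least 90% of MSN, all of them structural, against 459 of 7642 genes (6.01%). Atp5b, Cox5b and Atp5k, a small membrane subunit, were found in all 78 MSN. With the 3 cells of fewer than 2000 genes left out, the number found in every cell was 14, among them Atp5a1, Cox4i1, Cox6c, Cox8a, Ndufa3 and Ndufab1. None of the 10 assembly and associated genes reached 90%, and 28 of the 74 structural members did not either. Sdhd (55.1%) and Sdhc (62.8%) were found no more often than Ndufaf3 (62.8%) and Cox7a2l (67.9%). Levels and detection move together in such data, so the members were also set beside genes of 1 broad range of level. Between 100 and 1500 TPM, the 72 members were found in a median of 93.6% of MSN with a median coefficient of variation of 0.84. All 1066 genes in that range had 84.6% and 1.07. The range is wide, and 58 members lay among the 500 genes with the highest mean. The part of level within the range in this difference was not tested. The members' exons are also short, with a median of 1756 bases of merged exon against 3991 for all genes above 10 TPM, and the part of length in this difference was not tested. Among 74 structural members with a length, level and length had a Spearman rho of -0.11.

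**Figure D2:**
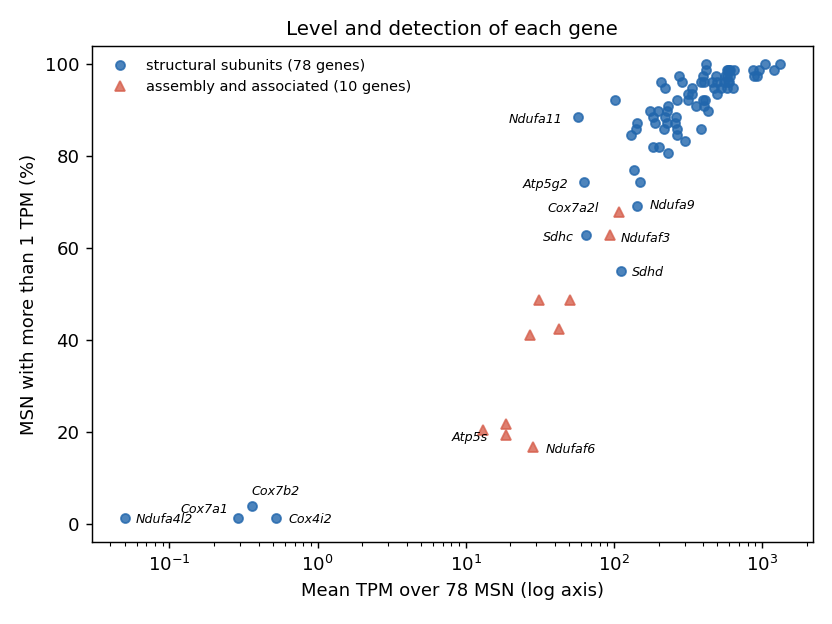
Share of the 78 MSN with more than 1 TPM against the mean TPM (log axis) of each of the 88 genes. Structural subunits gather at the upper right, the 10 assembly and associated genes lie below 70% of cells, and Sdhd and Sdhc are the structural genes above 10 TPM with the lowest shares.

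The complex I assembly factors were low and patchy. Ndufaf1 to Ndufaf7 averaged from 18.6 TPM (Ndufaf1, a chaperone of the membrane arm) to 94.5 TPM (Ndufaf3, which acts on an early module). Ndufaf3 was found in 24 of the 40 D1 cells (60.0%, 43.3 to 75.1%) and in 25 of the 38 D2 cells (65.8%, 48.6 to 80.4%). Ndufaf6 was found in 13 of 78 MSN, Ndufaf1 in 17, Atp5sl in 16 and Atp5s, a coupling factor related protein, in 15. These 4 genes and Ndufaf5 had the 5 largest coefficients of variation among the members, from 1.98 (Ndufaf5) to 3.46 (Ndufaf6). Their level in a typical MSN was at or near 0, and their means came from few cells.

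D1 and D2 MSN differed little in these genes. The log2 fold was taken as the mean TPM plus 1 of D1 MSN over that of D2 MSN, so negative values are higher in D2. The 84 members had a median of -0.09, with -0.16 on FACS051_5 and -0.24 on FACS086_4, and the 7642 genes above 10 TPM had a median of 0.01. A log2 fold of at least 1 was reached by 1 member, Ndufaf6, where 12.4% of all genes reached it. A log2 fold of -1 or lower was reached by 1 member, Atp5s, where 9.58% of all genes did. Both past these limits on each large plate were the same genes, against 4.48% and 3.79% of all genes. Of the 84 members, 73 (86.9%) lay within 0.5 of 0, against 51.5% of all genes. No structural subunit above 10 TPM passed 1 in either direction with all plates pooled. On FACS086_4 alone Sdhd (-1.53) and Ndufa10 (-1.09) did. With the mean of log2 values in place of the log of means, structural genes passed it as well, among them Ndufb7 (1.76), Ndufs7 (1.23) and Sdhd (-1.39). The members were more abundant than most of these genes, and the part of abundance in this difference was not tested.

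**Figure D3:**
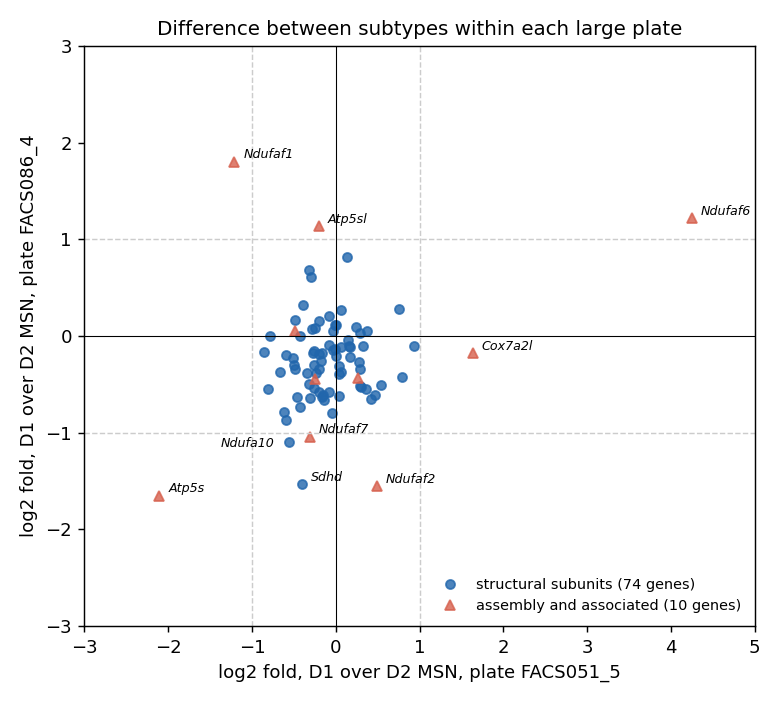
log2 fold of D1 over D2 MSN on plate FACS051_5 (x axis) and FACS086_4 (y axis) for the 84 genes that averaged at least 10 TPM, with dashed lines at 1 and -1. The 74 structural subunits (circles) stay mostly inside the lines, and Ndufaf6 and Atp5s lie outside them on both plates.

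The direction of the small differences leaned toward D2. On both large plates, 37 of the 84 members (44.0%) were higher in D2 MSN and 8 (9.52%) were higher in D1 MSN, against 26.7% and 23.9% of all genes. The summed level of the members ran from 44.8 through a median of 31121 to 43074 TPM in D1 MSN and from 10035 through 32281 to 50628 TPM in D2 MSN. The means were 28988 ± 9448 TPM (SD, 40 cells) and 31856 ± 8923 TPM (SD, 38 cells), a log2 ratio of -0.14. Within plates the log2 ratio was -0.08 on FACS051_5 and -0.28 on FACS086_4. The difference was smaller than the spread among cells, and the groups overlapped except at both ends. By complex, the log2 ratio of the sums was -0.14 for complex I, -0.30 for complex II, -0.07 for complex III, -0.12 for complex IV and -0.16 for complex V. All 5 were below 0 on FACS086_4, and on FACS051_5 all but complex III, at 0.02. Without FACS086_4 the direction turned, with a log2 ratio of the summed level of 0.0064, though FACS051_5 alone had -0.08. The other cells were then those of FACS086_9, 1 D1 MSN with 34968 TPM and 3 D2 MSN with a mean of 22065 TPM. Without cells of fewer than 2000 genes the log2 ratio was -0.14. Those cells were B02 (D1, 44.8 TPM) and D12 (D2, 16815 TPM) of FACS086_4 and A12 (D2, 15942 TPM) of FACS086_9. Leaving out B02 alone was not tested. Without the D04 cell the log2 ratio was -0.15. The D1 MSN had more genes found (mean 5558) than the D2 MSN (4924), mainly on FACS086_4, with 5717 and 4622, whereas on FACS051_5 the means were 5337 and 5662. The part of this in the difference was not tested. TPM are shares, so less of these transcripts and more of others cannot be told apart.

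**Figure D4:**
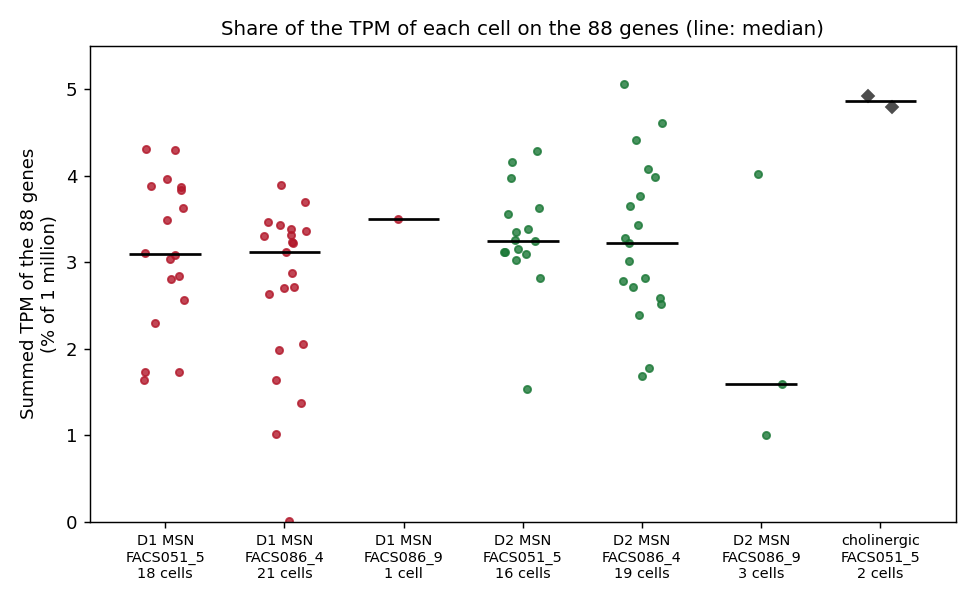
Summed TPM of the 88 genes in each cell, as a percent of the TPM scale, by group and plate, with a line at the median. D1 and D2 MSN overlap on both large plates, 1 D1 cell of FACS086_4 lies near 0, and the 2 cholinergic interneurons lie above all MSN but 1.

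Ndufaf6, which helps to assemble complex I, had a log2 fold of 2.47 from few cells, with 4.25 on FACS051_5 and 1.22 on FACS086_4. It was found in 6 of the 40 D1 cells (15%, 5.71 to 29.8%) and in 7 of the 38 D2 cells (18.4%, 7.74 to 34.3%). The shares of cells were close, and the intervals cover counting error only and do not compare the groups. The D1 cells had 627, 354 and 245 TPM on FACS051_5 and 391, 167 and 123 TPM on FACS086_4. The D2 cells had 29.1, 11.7 and 1.15 TPM on FACS051_5 and 110, 99.1, 43.3 and 1.69 TPM on FACS086_4. All 6 D1 values lay above the highest D2 value, and 34 D1 and 31 D2 MSN had no more than 1 TPM. The second D1 value on FACS051_5 is the D04 cell, and without it the log2 fold was 2.21. With the mean of log2 values in place of the log of means, the difference was 0.43.

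Atp5s had a log2 fold of -1.81, with -2.10 on FACS051_5 and -1.65 on FACS086_4. It was found in 5 of the 40 D1 cells (12.5%, 4.19 to 26.8%) and in 10 of the 38 D2 cells (26.3%, 13.4 to 43.1%). The D1 values were 158, 115, 33.5, 6.51 and 1.16 TPM, and those of D2 ran from 1.60 to 243 TPM. Here the D2 group had more cells with the transcript, and the difference of mean log2 values was -1.02. These intervals too cover counting error only and do not compare the groups.

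Below these, the members that leaned furthest toward D2 on both plates were Sdhd, Ndufa10, Ndufs4 and Atp5o. Sdhd, whose start region is printed above, averaged 77.7 TPM in D1 and 147 TPM in D2 MSN. It ran from 0 through 1.17 to 444 TPM in D1 and from 0 through 68.0 to 702 TPM in D2 MSN. It was found in 20 of the 40 D1 cells (50.0%, 33.8 to 66.2%) and in 23 of the 38 D2 cells (60.5%, 43.4 to 76.0%). Its log2 fold was -0.91, and it was further from 0 on FACS086_4 (-1.53) than on FACS051_5 (-0.41). Ndufa10, an accessory subunit, averaged 165 and 275 TPM (log2 fold -0.74, plates -0.56 and -1.09). Ndufs4, an accessory subunit whose loss causes a Leigh-like encephalopathy in mice, averaged 101 and 160 TPM (-0.66, plates -0.60 and -0.87), and its log2 fold was -1.04 on the scale set by the upper quartile of each cell. Atp5o, the stalk subunit that ties the catalytic head to the membrane part, averaged 319 and 496 TPM (-0.64, plates -0.62 and -0.79). The ranges of D1 and D2 cells overlapped in each of these genes.

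Toward D1 the leading structural genes on both plates were Ndufb7, Uqcrh, Ndufa13 and Atp5j2. Ndufb7, an accessory subunit, averaged 239 and 162 TPM (log2 fold 0.56, plates 0.76 and 0.28) and was found in 37 of the 40 D1 cells (92.5%, 79.6 to 98.4%) and in 27 of the 38 D2 cells (71.1%, 54.1 to 84.6%). With the mean of log2 values its difference was 1.76. Uqcrh, the hinge protein of complex III, ran from 0 through 414 to 1739 TPM in D1 and from 0 through 250 to 1194 TPM in D2 MSN, with means of 499 and 358 TPM (0.48, plates 0.13 and 0.81). On the scale set by the upper quartile of each cell its log2 fold was 0.06. Ndufa13 averaged 229 and 185 TPM (0.30, plates 0.37 and 0.05), and on the upper-quartile scale its direction turned (-0.46). Atp5j2 averaged 358 and 309 TPM (0.21, plates 0.07 and 0.27), and on that scale it was at -0.03. With the mean of log2 values these genes had 0.78 and 0.90. Cox7a2l, a factor for joining complexes III and IV, shows how plates can differ. It averaged 186 and 59.2 TPM in D1 and D2 MSN of FACS051_5 (log2 fold 1.64) and 82.5 and 93.7 TPM on FACS086_4 (-0.18). Other assembly and associated genes crossed 0 between the plates as well: Ndufaf1 had -1.21 and 1.80, and Ndufaf2 0.49 and -1.55.

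Cells that were high in complex I were mostly high in complexes III, IV and V, and complex II followed the others less closely. Across 78 MSN, Pearson's r between the summed level of complex I and that of complex V was 0.82, of complex IV 0.78, of complex III 0.68 and of complex II 0.52. On the large plates the first of these was 0.82 and 0.81. Its Spearman's rho over the 78 MSN was 0.69. Over the 75 MSN with at least 2000 genes, which leave out the cell in well B02 of FACS086_4, its r was 0.78 and its rho 0.65. Across the 78 MSN, the sums of complexes IV and V had an r of 0.71, whereas complex II had 0.40 with complex V (0.21 on FACS051_5) and 0.27 with complex III (0.14 on FACS051_5). Complex II is a sum of 4 genes, fewer than any other complex, and the part of this in its lower r was not tested. Over the 75 MSN with at least 2000 genes, a member's level correlated with the sum of the other members with a median r of 0.31, against 0.08 for all genes above 10 TPM, and 53.6% of members had an r over 0.3, against 5.97%. Uqcr11 (0.64), Atp5j (0.63) and Atp5b (0.61) were highest, and Ndufaf7 (0.02) and Ndufb7 (0.03) lowest. All genes above 10 TPM had a median level of 29.5 TPM, against 296 TPM for the members. The part of level in the contrast between members and all genes was not tested. The values of a cell share 1 library and 1 scaling, and the summed level of the members also went with the sum of all listed genes (r = 0.75). These correlations are across cells and are given as a description.

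The 13 subunits encoded in the mitochondrial genome did not follow the nuclear ones. They summed to a mean of 71981 TPM over MSN and exceeded the nuclear sum in 77 of 78 cells. Across the 78 MSN, r between both sums was -0.09 (Spearman's rho 0.0050), with -0.24 on FACS051_5 and 0.09 on FACS086_4. Over the 75 MSN with at least 2000 genes it was -0.24 (rho -0.09). The mitochondrially encoded sum averaged 96217 TPM in D1 and 70970 TPM in D2 MSN on FACS051_5, and 58849 and 59121 TPM on FACS086_4. Its direction over D1 and D2 thus came from 1 plate. None of the 13 genes passed a log2 fold of 1 toward D1 or toward D2, against 12.4% and 9.58% of all genes above 10 TPM. Their folds ran from -0.09 (mt-Nd3) to 0.29 (mt-Co1). The nuclear to mitochondrial ratio of the sums had a median of 0.46 in D1 and 0.53 in D2 MSN.

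**Figure D5:**
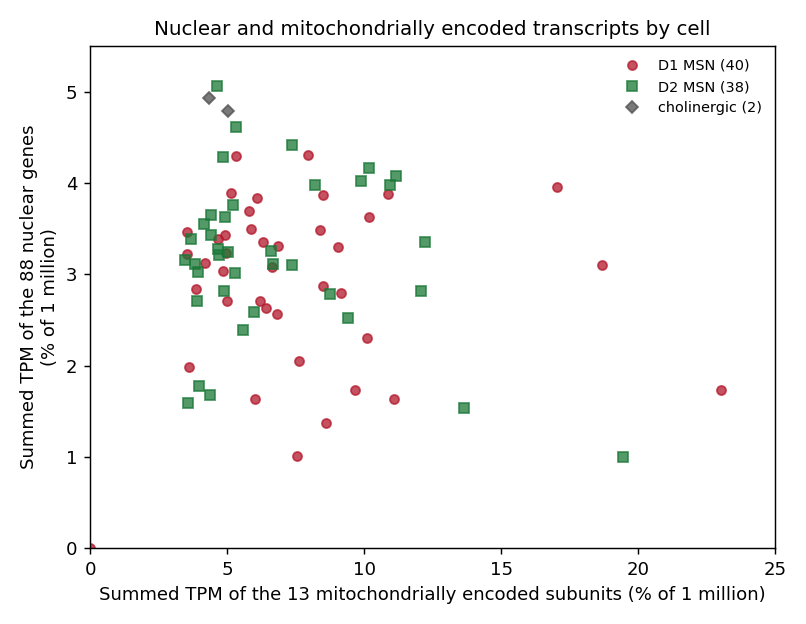
Summed TPM of the 88 nuclear genes against that of the 13 mitochondrially encoded subunits in each of 80 cells, both as a percent of the TPM scale. The D1 and D2 MSN overlap, 1 D1 cell lies near the origin, and the 2 cholinergic interneurons lie at the upper left.

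Related genes outside the set were fewer. Among all genes above 10 TPM, 12.4% passed a log2 fold of 1 toward D1 and 9.58% passed it toward D2. The lists are short, and their counts past the fold are not read as a trait of a list. Of 5 genes for cytochrome c and other electron carriers, 4 averaged at least 10 TPM and none passed a log2 fold of 1. Cyc1, the heme subunit of complex III whose name the rule does not take in, averaged 125 TPM, and Cycs, cytochrome c itself, 90.9 TPM. Of 23 genes for the assembly of complexes III, IV and V, 19 averaged at least 10 TPM. Sco2, a copper chaperone, passed 1 toward D1 (1.83, plates 2.24 and 1.26, found in 10 D1 and 5 D2 MSN), and Cox10, for heme a synthesis, passed it toward D2 (-1.01, plates -0.90 and -1.32, found in 18 and 18). Atpif1, the inhibitor of the ATP synthase, averaged 566 TPM, a level like that of the subunits. Of 15 citric acid cycle genes, 14 were above 10 TPM and 1, Cs (citrate synthase), passed 1 toward D1, with 56.8 and 21 TPM (1.39, plates 0.85 and 2.48). Of 11 measured regulators of mitochondrial genes, 5 averaged at least 10 TPM, and Tfam, which packages mitochondrial DNA, passed 1 toward D2 (-1.78, plates -3.25 and -1.10, found in 12 and 10 MSN). The factors named for the start regions were low: Nrf1 averaged 15.6 TPM, Gabpa 8.23 TPM, Yy1 15.6 TPM and Esrra 7.54 TPM.

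The 2 cholinergic interneurons had more of the nuclear transcripts than nearly all MSN. Their members summed to 49262 and 47905 TPM, and 1 of 78 MSN, a D2 cell of FACS086_4 with 50628 TPM, reached that range. The listed genes of the 2 cells summed to 944336 and 932012 TPM, against a mean of 838895 TPM in MSN. As a share of the listed sum their members held 5.22% and 5.14%. The D2 cells in wells B07 (5.58%), D07 (5.25%) and C05 (5.22%) of FACS086_4 reached that range. The members found were 84 and 83 of 88, against medians of 75 in D1 and 73 in D2 MSN. Of the 84 members above 10 TPM, 56 (66.7%) exceeded the D2 MSN mean in both cells, against 34% of all genes. The median ratio to the D2 mean was 1.52 for the members, 1.66 for complex V, 1.59 for complex IV and 1.09 for all genes. Atp5b had 1959 and 2970 TPM, Cox6b1 1011 and 1435 TPM against a D2 mean of 386 TPM, and Uqcrc2 138 and 100.5 TPM against 185 TPM. Both cells had more genes found, 10912 and 10251, than any MSN, and their mitochondrially encoded sums, 43370 and 50222 TPM, were below the MSN mean. They come from 1 plate, and the number of genes found and the cell type cannot be told apart here.

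The number of members found per cell followed the number of genes found. It ran from 14 through 75 to 82 in D1 and from 35 through 73 to 81 in D2 MSN. As a share of the 88, the medians were 85.2% and 83.0%, a difference of 2.27 percentage points, with -0.57 on FACS051_5 and 1.14 on FACS086_4. Across 78 MSN, r between members found and genes found was 0.76, whereas r between the members' summed level and genes found was 0.24, and 0.04 without the cells of fewer than 2000 genes. The cell in well B02 of FACS086_4 had 14 members found, 44.8 TPM of them in sum and 57.5 TPM of mitochondrially encoded subunits. The next lowest sums were 10035 TPM in well A06 of FACS086_9, with 194483 TPM of mitochondrially encoded subunits, and 10124 TPM in well D03 of FACS086_4, which had 6415 genes found. Low sums occurred in cells with many and with few genes.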

How the data were processed

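The table, deposited by the authors, gives TPM per gene and cell. The sources name bcl2fastq 2.18, STAR 2.5.0 on mm10/GRCm38 with annotation GRCm38.75, and featureCounts 1.5.1 for the reads, but how the authors made the TPM is not given in the sources used here, and depth is unknown. DESeq2 1.14.1 was used by the authors for their own tests, which were not used here. Cells were grouped by the marker in their labels. The study's methods name 3 animals in separate experiments and count slightly fewer usable cells than the 80 in the table, but the labels tie no cell to an animal and mark none as unusable. The 80 cells were all used, and with 1 sample a group there was no test. The log2 fold was taken between group means of TPM plus 1, for genes averaging at least 10 TPM over MSN. Shares of cells have exact Clopper-Pearson 95% intervals, which cover counting error only. Coordinates are those of GENCODE M21 and RefSeq on GRCm38, and 87 members had an entry in GENCODE M21. Protein sequences were not used here. Values of 1 member are not reported here.

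The members and lists were chosen with earlier results of these data known. Members were named if they were core subunits or isoforms, had the highest or lowest mean of a complex, were among the 5 per direction with the largest log2 fold of like sign on both large plates, or had the 5 largest or smallest coefficients of variation. Atp5j, Atp5h, Atp5k, Ndufaf2, Ndufaf3, Ndufaf7, Ndufa3 and Ndufa11 were chosen after their values were seen. Alternatives changed the pseudocount, the mean, the scaling, the filter, the found limit, the fold limit and the cells. The fold formula was checked on the real MSN, split at random, with a known factor put into some genes of a group. It returned the change put in, which checks the arithmetic only. Values were computed in Python 3.11.15 with pandas 2.3.3 and numpy 2.4.6, intervals with scipy 1.17.1, and plots with matplotlib 3.10.9.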

Additional observations from a re-analysis of the deposited data

How the results depend on the processing

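No paired analysis was possible because the cells carry no replicate number of their own and no result comes from a test. For the 5 summary results, 54 alternative values moved by less than the spread between the large plates, or stayed within 1.5 times for a count, and 20 did not. The summed level (log2 ratio -0.14) was -0.33 with the mean of log2 values and -0.36 with scaling to the upper quartile. The D1 mean of log2 values includes the cell in well B02 of FACS086_4, with 44.8 TPM in sum, and the part of this cell was not tested. Without FACS086_4 the log2 ratio was 0.0064 and its direction turned, while FACS051_5 alone had -0.08 and the other cells were those of FACS086_9. The median log2 fold of the members (-0.09) was -0.23 with scaling to the upper quartile, -0.18 without FACS051_5, -0.016 without FACS086_4, -0.16 without FACS086_9 and -0.16 with equal weight for the 2 large plates. It was below 0 under each alternative run. The median of all genes went from 0.01 to 0.16 with the mean of log2 values, where the members lay 0.24 below it (-0.24). Members higher in D1 numbered 1, but 3 with the mean of log2 values, 2 without FACS051_5, 3 without FACS086_4, 2 without the filter, 0 with a mean of at least 50 TPM and 3 at a log2 limit of 0.5. Those higher in D2 numbered 1, but 5 with the mean of log2 values, 6 with scaling to the upper quartile, 2 without FACS051_5, 0 with a mean of at least 50 TPM and 8 at a limit of 0.5. The difference in members found per cell (2.27 percentage points) was 0.28 with equal weight for the large plates. A higher filter leaves fewer genes and a lower limit calls more by construction, and for the other changes the cause was not tested. Of the alternative folds of single genes, 612 moved by less than the spread between the large plates and 88 by more, and the 2 genes past the limit kept their direction. Depth is unknown, so a gene listed at 0 may be present.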
